A study of Mus musculus with 6 samples.

Results

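The LIF, JAK and STAT3 pathway was examined through 10 genes taken by symbol from the 43309 genes of the count table: the ligand Lif, the receptor chains Lifr and Il6st, the kinase Jak1, the transcription factor Stat3, its feedback inhibitor Socs3, and the target or early response genes Gbx2, Pim1, Pim3 and Junb. Each symbol matched a single Ensembl identifier, and all 10 genes were among the 16823 that passed the filter of at least 10 counts in at least 1 library. RNA of mouse embryonic stem cells (mESCs) of strain J1 (129SV) was sequenced with the TruSeq Stranded mRNA protocol, from 2 μg of total RNA and with 8 PCR cycles. The control group held 3 independently derived lines labelled Zbtb24 wild-type (2lox/+), a genotype that itself carries a modified allele beside an unmodified one, and the other group held 3 independently derived lines labelled Zbtb24 knockout (1lox/1lox). All 6 lines grew on gelatin without feeder cells in medium with serum. Whether LIF was added to the medium, the ages of the cultures and the days of harvest were not given in the sources used here. The libraries held 25042261 to 28838924 counted fragments, so that 1 fragment was worth 0.0354 to 0.0406 counts-per-million (cpm).

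LIF is a cytokine of the IL-6 family. It binds the LIF receptor, which pairs with gp130 (the product of Il6st), and the JAK kinases held by these chains then phosphorylate STAT3, which enters the nucleus and switches on genes. In mouse embryonic stem cells this pathway is known for holding cells in the self-renewing state, and Socs3, Gbx2, Pim1, Pim3, Klf4 and Tfcp2l1 are known STAT3 targets there. SOCS3 closes a negative loop by binding gp130 and JAK.

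The product of Zbtb24, the targeted gene, carries zinc fingers. Its counts were 510, 512 and 489 in the control lines and 888, 925 and 1039 in the other group, a log2 fold change of 0.99. The whole-gene count was therefore higher in the group labelled knockout, which is called "labelled knockout" throughout. The label does not state what whole-gene count it implies. The count per gene does not show which exons were read. All 10 embryonic stem cell markers on the list, Pou5f1, Sox2 and Nanog among them, were counted. Their summed level was 5652 to 5751 cpm in the control libraries and 6639 to 6690 cpm in those labelled knockout. Of them, 7 were higher and 3 lower (Zfp42, Fbxo15 and Lin28a, by log2 fold changes of -0.77, -0.52 and -0.44). Zfp42 lies on chromosome 8, where 69 other genes within 10 Mb had a median log2 fold change of -0.42. Nanog (log2 fold change 1.13) lies on chromosome 6, where 174 such neighbours had a median of 0.53. The part of these regions in the changes of Zfp42 and Nanog was not tested. Of markers of other cells, the 8 fibroblast genes summed to 57.1 to 60.4 cpm against 10.7 to 11.3 cpm, with Lum at 0 in every library and 6 genes lower in the group labelled knockout. The 4 trophoblast genes summed to 19.1 to 21.8 cpm against 3.22 to 4.18 cpm, the 7 primitive endoderm genes to 11.7 to 13.0 against 10.7 to 12.9, the 4 mesoderm genes to 6.70 to 6.96 against 7.90 to 9.27, and the 3 blood cell genes to 21.02 to 23.8 against 11.8 to 13.1, where Cd68 fell, Itgam rose and Ptprc did not pass the filter. In RNA from whole cultures, fewer cells of a type and less RNA per cell cannot be told apart.

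The pathway genes did not move as a block. Lif and Junb were lower by 3.03-fold and 1.94-fold in the libraries labelled knockout, Jak1 was lower by 1.27-fold, Socs3 and Gbx2 were higher by 2.29-fold and 2.00-fold, and Lifr, Il6st and Pim1 were higher by 1.44-fold, 1.40-fold and 1.39-fold. Stat3 was 1.14-fold higher, and Pim3 was the least changed. With adjustment over all genes tested in edgeR's quasi-likelihood test and a limit of 0.05 on the false discovery rate (FDR), 10 of the 10 were differentially expressed, 6 of them higher and 4 lower. That count has to be read against the whole table, in which the same rule called 69.5% of the genes tested, 34.4% higher and 35.2% lower. Counts of genes that rose or fell in the lists below are to be read against the same shares. Of the 10573 genes with a mean count at least that of Lif, the lowest of the 10, 8198 were called, 4460 higher and 3738 lower. Likewise the 3 values of a group lay wholly above or below those of the other in 10 of the 10 genes, against 71.5% of all genes tested. The size of the changes sets the genes apart from each other more than the calls do. With a log2 fold change of 1 or more in size required as well, 3 of the 10 were called (Lif, Socs3 and, barely, Gbx2), and Junb stood just outside. This rule called 17.0% of all genes tested, but only 798 of the 10573 genes counted at least as highly as Lif. Tested against a minimum absolute log2 fold change of 0.5, 4 of the 10 (Lif, Socs3, Gbx2 and Junb) passed, against 24.9% of the genes tested. The median log2 fold change was 0.33 over the 10 genes and -0.00036 over all genes tested, and the median absolute value 0.51 and 0.33. Over the 10573 genes the median was 0.029 and the median absolute value 0.235.

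**Figure D1:**
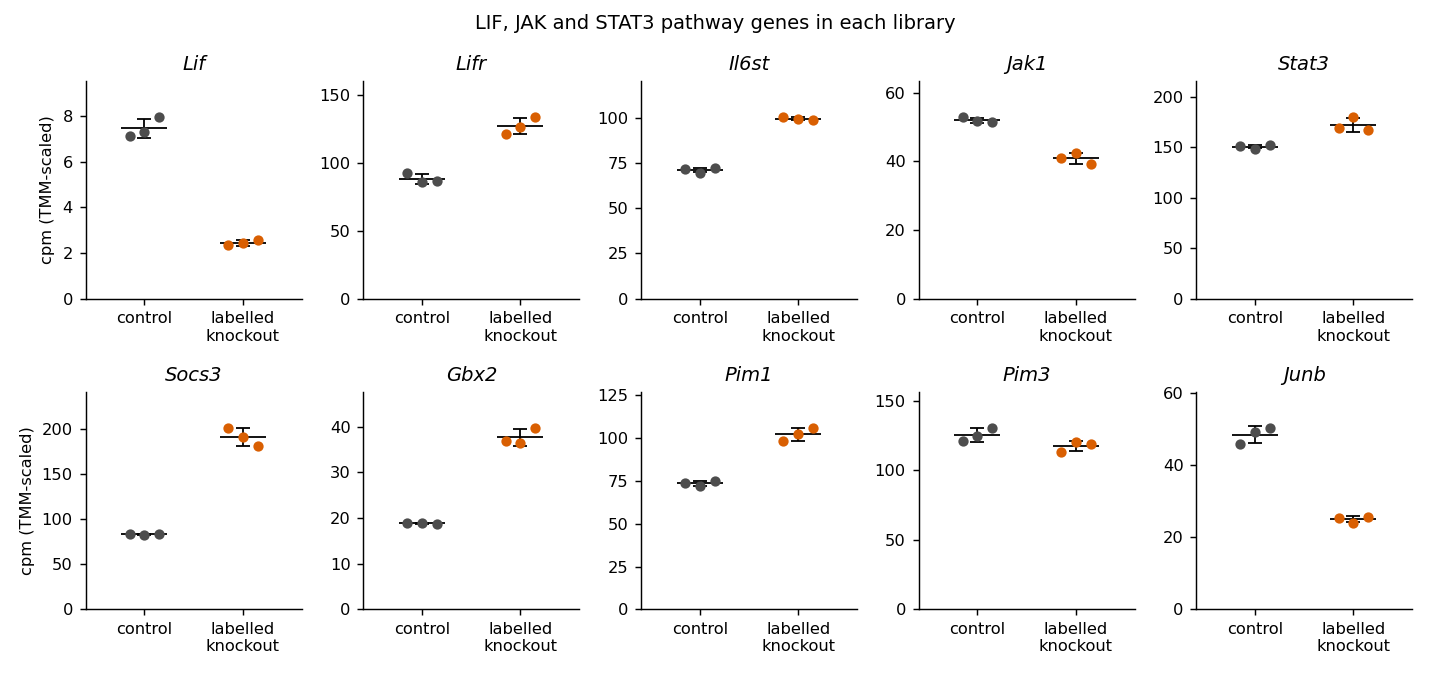
Level of each of the 10 pathway genes in every library, in TMM-scaled cpm on axes that start at 0, with each point a library and the bar and whiskers the mean and SD of 3 lines. Lif and Junb are lower and Socs3 and Gbx2 higher in the lines labelled knockout by far more than the whiskers, whereas the points for Pim3 almost touch, at 120.9 cpm in the lowest control line and 120.4 in the highest line labelled knockout.

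Lif (ENSMUSG00000034394, chromosome 11 from 4257557 to 4272514 of mm10, plus strand, protein coding) was the lowest of the 10 genes. It was counted in 201, 201 and 218 fragments in the control lines and in 61, 60 and 73 in the lines labelled knockout. Every control line lay above every line labelled knockout, with no overlap. After scaling this was 7.47 ± 0.42 cpm (SD, n = 3) against 2.45 ± 0.13 cpm (SD, n = 3), a log2 fold change of -1.60 (SE 0.11, edgeR quasi-likelihood test with adjusted p = 8.24e-18). The message of the cytokine itself was at 0.33 of the control level. The fibroblast and trophoblast markers given above moved in the same direction in the same libraries, and their part in this result was not tested.

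To show the sequence ahead of the gene with the largest fall, the part of its promoter outside annotated exons is printed from RefSeq (GRCm38.p6, the mm10 build), at chr11:4257318-4257556 on the plus strand, 250 to 12 bases before the RefSeq start. Capitals mark the match to TGANTCA, the site of AP-1 factors (dimers of Jun and Fos proteins, of which JunB is a member), which begins 228 bases before the start.
Lif: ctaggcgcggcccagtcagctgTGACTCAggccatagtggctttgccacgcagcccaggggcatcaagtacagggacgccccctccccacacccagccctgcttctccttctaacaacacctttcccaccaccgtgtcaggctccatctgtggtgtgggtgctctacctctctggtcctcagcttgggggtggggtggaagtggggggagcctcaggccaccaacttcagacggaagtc
Among the 12 RefSeq promoters of the 10 genes, counted over the 250 bases before each start, this was the 1 promoter with TGANTCA. That pattern is its own reverse complement, and 6.75% of all 32851 promoters held it. The match does not show that AP-1 factors bind there, and any part of it in the fall of Lif was not tested.

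The IL-6 family ligand genes beside Lif were low and mostly fell. Of the 8 on the list, Il6 did not pass the filter, with at most 2 fragments in any library, 6 were lower and none was higher, and Cntf did not pass the test (log2 fold change 0.50, adjusted p = 0.424). Their median log2 fold change was -1.72. Among all genes tested, 35.2% were called lower and 34.4% higher. Ctf1 (cardiotrophin 1) went from 143, 147 and 149 to 83, 87 and 85, with a log2 fold change of -0.71. Osm was counted in 51, 47 and 48 fragments against 8 in each line labelled knockout. On the length-scaled level (FPKM, here cpm divided by the kilobases of the longest transcript), Lif, Il6, Il11, Osm, Cntf, Ctf1, Ctf2 and Clcf1 together made 7.67 ± 0.37 in control libraries and 3.67 ± 0.20 in libraries labelled knockout (SD, n = 3 each), and Lif was 24.2% ± 0.48 and 16.7% ± 1.19 of that sum. Ligand messages are low, and their fragments per library are few, so the folds of Il11 and Ctf2, at 18 or fewer fragments in every library, are imprecise.

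The receptor chains rose together by similar amounts. Lifr (ENSMUSG00000054263, chromosome 15 from 7090614 to 7197489, plus strand) encodes the LIF-specific chain and was counted in 2589, 2357 and 2365 fragments in the control lines and in 3160, 3110 and 3763 in those labelled knockout. Il6st (ENSMUSG00000021756, chromosome 13 from 112464070 to 112510086, plus strand) encodes gp130, which the whole cytokine family shares, and was counted in 2014, 1915 and 1975 fragments against 2616, 2448 and 2785. In both genes every line labelled knockout lay above every control line. The log2 fold change of Lifr was 0.53 (SE 0.033, adjusted p = 9.64e-20) and that of Il6st 0.48 (SE 0.031, edgeR quasi-likelihood test with adjusted p = 3.05e-19). The ratio of Lifr to Il6st on the FPKM scale was 1.11 ± 0.040 in control libraries and 1.15 ± 0.065 in libraries labelled knockout (SD, n = 3 each), a difference within the spread of the lines. The ratio of Lifr to Lif went from 4.93 ± 0.42 to 21.6 ± 0.065. Lif was counted in only 61, 60 and 73 fragments in the libraries labelled knockout, so the small SD there is not a measure of precision.

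The chains specific for other cytokines of the family went in different directions. Il6ra, the IL-6 binding chain, rose from 2.23 ± 0.10 to 5.39 ± 0.26 cpm (SD, n = 3 each; log2 fold change 1.27), and Cntfr, the ciliary neurotrophic factor binding chain, fell from 8.97 ± 0.49 to 3.64 ± 0.38 cpm (log2 fold change -1.30). Il11ra1 (log2 fold change -0.22, adjusted p = 0.158) and Osmr (-0.46, adjusted p = 0.350, at 15 or fewer fragments per library) did not pass edgeR's quasi-likelihood test, which leaves 1 of the 4 higher and 1 lower.

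Jak1 (ENSMUSG00000028530, chromosome 4 from 101152367 to 101265282, minus strand), the kinase on which gp130 signalling chiefly depends, was counted in 1487, 1420 and 1416 fragments in the control lines and in 1074, 1043 and 1105 in those labelled knockout. The groups did not overlap, at 52.0 ± 0.70 cpm against 40.9 ± 1.63 cpm (SD, n = 3 each), and the log2 fold change was -0.35 (SE 0.039, edgeR quasi-likelihood test with adjusted p = 4.01e-11). The other JAK genes fell as well, 3 of 3, by log2 fold changes of -0.80 in Jak2, -0.58 in Tyk2 and -0.18 in Jak3. Of all genes tested, 35.2% were called lower. The value of Jak3 was that of its surroundings on chromosome 8, where 163 neighbours within 10 Mb had a median of -0.18. The summed FPKM of the 4 genes went from 35.8 ± 0.22 to 27.7 ± 0.37, of which Jak1 made 29.6% ± 0.38 and 30.1% ± 0.80 (SD, n = 3 each), a difference within the spread of the lines. Jak3, which is best known from lymphocytes, was counted in 1392 to 1420 fragments in the control lines and in 1092 to 1281 in those labelled knockout.

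Stat3 (ENSMUSG00000004040, chromosome 11 from 100885098 to 100939540, minus strand) encodes the transcription factor at the centre of the pathway, and its own gene is among its known targets. It was counted in 4253, 4089 and 4172 fragments in the control lines and in 4416, 4428 and 4730 in those labelled knockout. The change was small but larger than the spread of the lines, from 150.6 ± 1.64 to 172.2 ± 6.71 cpm (SD, n = 3 each), with a log2 fold change of 0.19 (SE 0.028, edgeR quasi-likelihood test with adjusted p = 3.98e-08). This is the size of change that 32.9% of the genes tested did not reach. Of the other 6 STAT genes, 4 rose, Stat5b fell (log2 fold change -0.63) and Stat2 did not pass the test (0.0029, adjusted p = 0.960). Stat4, at 94 to 108 fragments in the control lines and 236 to 289 in the others, had the largest rise, with a log2 fold change of 1.48. Stat3 made 54.5% ± 0.42 of the summed STAT FPKM in control libraries and 54.0% ± 1.66 in libraries labelled knockout (SD, n = 3 each), a difference within the spread of the lines.

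Socs3 (ENSMUSG00000053113, chromosome 11 from 117966079 to 117970047, minus strand), the feedback inhibitor, had the largest rise among the 10 genes. It was counted in 2341, 2280 and 2291 fragments in the control lines and in 5254, 4694 and 5109 in those labelled knockout. The control lines were nearly identical after scaling, at 83.2 ± 0.24 cpm (SD, n = 3), though an SD of 3 values is itself imprecise. The others ranged from 181.0 to 201.2 cpm around a mean of 190.9 ± 10.1 (SD, n = 3). The log2 fold change was 1.20 (SE 0.031, edgeR quasi-likelihood test with adjusted p = 7.80e-35). Socs3 thus rose far more than Stat3, and the ratio of Socs3 to Stat3 on the FPKM scale went from 1.31 ± 0.011 to 2.63 ± 0.17 (SD, n = 3 each).

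The Socs3 promoter is shown because it was the 1 of the 12 with the letters of the STAT site, TTCNNNGAA, which is its own reverse complement. The stretch printed is the longest run outside annotated exons in the 250 bases before the RefSeq start, chr11:117969452-117969616 of GRCm38.p6 on the minus strand, 250 to 86 bases before the start, and it lies within the longer span that GENCODE gives the gene. Capitals mark the match, TTCTTAGAA, which begins 154 bases before the start.
Socs3: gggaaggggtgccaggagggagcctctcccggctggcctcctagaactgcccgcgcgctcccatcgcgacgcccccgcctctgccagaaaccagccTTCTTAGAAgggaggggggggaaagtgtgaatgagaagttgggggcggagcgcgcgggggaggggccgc
Of all 32851 RefSeq promoters, 7.02% held TTCNNNGAA in the 250 bases before the start. A match of letters is not evidence of binding.

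Most relatives of Socs3 did not rise. Of the other 7 SOCS genes, 1 rose and 3 fell, with a median log2 fold change of 0.016. Socs1, also an inhibitor of JAK kinases, fell from 5.36 ± 0.55 to 3.40 ± 0.39 cpm (SD, n = 3 each; log2 fold change -0.65), Cish and Socs4 fell by log2 fold changes of -0.41 and -0.28, and Socs2 rose by 0.26. Socs5, Socs6 and Socs7 had log2 fold changes of 0.097, 0.016 and 0.048 and did not pass the test. Socs3 therefore went from 43.9% ± 0.12 to 63.2% ± 1.33 of the summed SOCS FPKM (SD, n = 3 each). The PIAS genes, whose products bind STAT factors, changed little. Pias2 rose by 0.20, Pias1 and Pias4 fell by 0.24 and 0.10 on the log2 scale, and Pias3 did not pass the test (log2 fold change 0.017). Among phosphatases that act on JAK or STAT, Ptpn6 rose by 0.58, Ptpn2 fell by 0.13 and Ptpn1 did not pass the test (0.014).

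**Figure D2:**
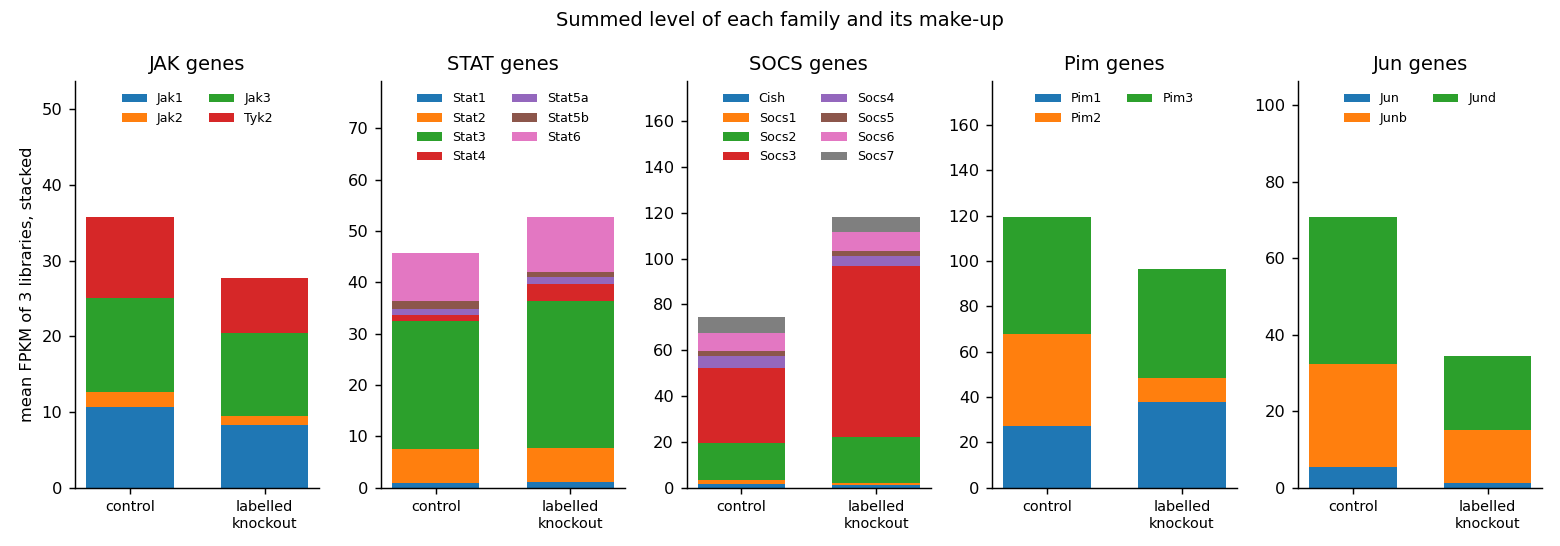
Mean FPKM of 3 libraries for each gene of the JAK, STAT, SOCS, Pim and Jun families, stacked, in control lines and lines labelled knockout, with each family on its own axis from 0. The SOCS bar grows from a summed 74.3 to 118.3 FPKM through Socs3, whereas the Pim bar shrinks from 119.6 to 96.7 through Pim2 and the Jun bar from 70.9 to 34.5.

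The genes downstream of STAT3 went in different directions. Gbx2 (ENSMUSG00000034486, chromosome 1 from 89927956 to 89931179, minus strand), a homeobox gene, was counted in 531, 520 and 512 fragments in the control lines and in 960, 898 and 1121 in those labelled knockout. That was 18.8 ± 0.15 cpm against 37.6 ± 1.79 cpm (SD, n = 3 each), with no overlap, and the log2 fold change was 1.00 (SE 0.049, edgeR quasi-likelihood test with adjusted p = 9.45e-24). Gbx2 lies in a part of chromosome 1 where most genes were higher. Within 10 Mb of it, 119 other genes (mean count 10 or more) had a median log2 fold change of 0.40, and 67.2% were higher. Gbx2 stood 0.60 above that median, with 89.9% of those neighbours below it. How far the shift of the region enters the change of Gbx2 was not tested.

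The Pim genes encode serine/threonine kinases that promote survival. Pim1 (ENSMUSG00000024014, chromosome 17 from 29490753 to 29496112, plus strand) was counted in 2081, 1981 and 2050 fragments in the control lines and in 2565, 2517 and 2987 in the other group, for a log2 fold change of 0.47 (SE 0.032, edgeR quasi-likelihood test with adjusted p = 2.84e-18). Pim3 (ENSMUSG00000035828, chromosome 15 from 88862186 to 88865726, plus strand) was counted in 3403, 3421 and 3581 fragments against 2961, 2964 and 3363. Pim1 was thus clearly higher, while the values of Pim3 were close together.

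For Pim3 the log2 fold change was -0.091 (SE 0.030, 95% interval from -0.15 to -0.032, edgeR quasi-likelihood test with adjusted p = 0.00706). The call did not hold. Without control line 3 the log2 fold change was -0.063 (adjusted p = 0.102), and without line 1 labelled knockout it was -0.065 (adjusted p = 0.0832). After a correction for GC content and length it turned to 0.13 (adjusted p = 4.18e-05 in the same test), a call in the opposite direction. The longest Pim3 transcript is 61.9% GC, which only Junb exceeded among the 10 genes. Pim2, on the X chromosome, fell from 2287, 2235 and 2396 fragments to 564, 528 and 589, a log2 fold change of -1.97. With that fall and the rise of Pim1 itself, the share of Pim1 in the summed Pim FPKM rose from 22.8% ± 0.57 to 39.1% ± 0.61. That of Pim2 fell from 34.0% ± 0.32 to 10.8% ± 0.46 (SD, n = 3 each). The larger share of Pim3, 43.2% ± 0.50 against 50.1% ± 0.45, came with no rise in its level before the correction for GC content and length.

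Junb (ENSMUSG00000052837, chromosome 8 from 84974484 to 84978718, minus strand) encodes an AP-1 subunit and is an early response gene. It was counted in 1290, 1353 and 1382 fragments in the control lines and in 663, 592 and 721 in those labelled knockout. The groups did not overlap, at 48.5 ± 2.34 cpm against 24.99 ± 0.82 cpm (SD, n = 3 each), and the log2 fold change was -0.95 (SE 0.045, edgeR quasi-likelihood test with adjusted p = 2.39e-24).

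Junb fell together with its relatives. Jun went from 466, 527 and 466 fragments to 107, 108 and 118, a log2 fold change of -2.06, and Jund and Fosl2 fell by 0.99 and 1.05 on the log2 scale. Fos, Fosb and Fosl1 were low, at 131 or fewer fragments per library, and fell by 0.64, 1.62 and 1.80. Of the 8 relatives on the list, 7 fell, including Pim2, and Gbx1, at 22 to 28 fragments, did not pass the test (log2 fold change -0.0046). The summed FPKM of Jun, Junb and Jund went from 70.9 ± 5.26 to 34.5 ± 1.67 (SD, n = 3 each), and Junb made 37.8% ± 1.08 and 40.0% ± 0.66 of it. The fibroblast and trophoblast markers moved in the same direction in the same libraries, and their part in the fall of these genes was not tested.

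Other known STAT3 targets of embryonic stem cells were mostly higher. Klf4, a transcription factor of the naive state, went from 1911, 1852 and 1859 fragments to 6588, 6454 and 6908, a log2 fold change of 1.90. Tfcp2l1, which ranks among the best known STAT3 targets in these cells, went from 4235, 4055 and 3963 to 11494, 10701 and 12040, a log2 fold change of 1.56. Bcl3 and Klf5 rose by 0.51 and 0.41. Myc was the 1 of the 5 that fell, from 88.9 ± 0.21 to 55.3 ± 5.89 cpm (SD, n = 3 each; log2 fold change -0.68). The list therefore had 4 genes higher and 1 lower, with a median log2 fold change of 0.51. The 7 targets known from other cells had 5 genes lower and none higher, with a median of -0.40. Among all genes tested, 34.4% were called higher and 35.2% lower, and whether either list departs from those shares was not tested. Cebpd (76, 90 and 88 fragments against 13, 18 and 14) and Cebpb (73, 66 and 54 against 33, 34 and 31) had log2 fold changes of -2.41 and -0.90, the survival genes Mcl1 and Bcl2l1 of -0.43 and -0.40, and Ccnd1 of -0.092. Birc5 (0.044) and Bcl6 (-0.092) did not pass the test.

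**Figure D3:**
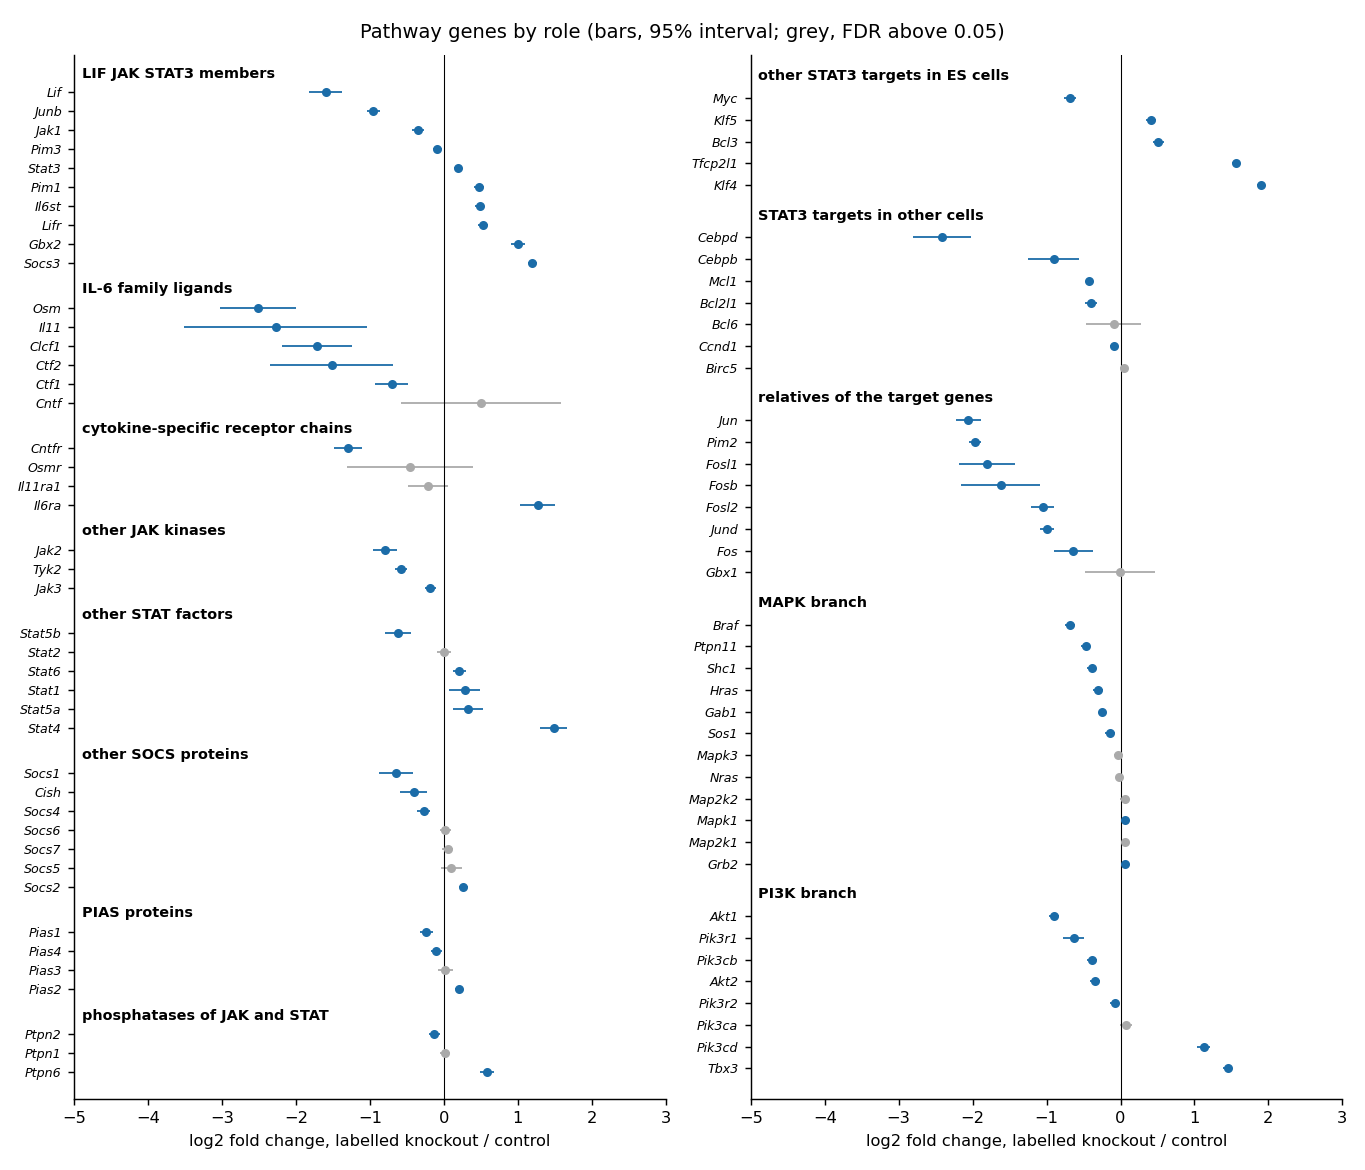
Log2 fold change of lines labelled knockout over control lines for the 10 genes and for other pathway genes that passed the filter, grouped by role, with bars for the 95% interval and grey for genes with an FDR above 0.05. Ligand genes, JAK genes and AP-1 genes lie mostly left of 0, Lifr and Il6st lie right of it, and Klf4 at 1.90 and Tfcp2l1 at 1.56 lie farthest to the right.

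LIF also feeds the MAPK and PI3K pathways. Of the 14 MAPK genes listed, 4 rose, 6 fell and 4 did not pass the test, with a median log2 fold change of -0.021, and the share called was close to the 69.5% of all genes tested. Ptpn11, which encodes the phosphatase SHP2 that binds gp130, fell by 0.47 on the log2 scale, and Gab1 by 0.24. Braf, which encodes a kinase upstream of MEK, fell by 0.69. Of the 9 PI3K genes, 3 rose, 5 fell and Pik3ca did not pass the test (0.075, adjusted p = 0.110). Tbx3, a transcription factor reached through this branch, rose from 47.2 ± 1.17 to 128.9 ± 3.29 cpm (SD, n = 3 each; log2 fold change 1.45). Akt1 and Akt2, which encode kinases downstream of PI3K, were lower (log2 fold changes -0.90 and -0.34). Pik3cd, a catalytic subunit, rose by 1.13, and the regulatory subunit Pik3r1 fell by 0.63. Over all 78 other pathway genes, 77 passed the filter, 19 rose, 41 fell and 17 did not pass the test, beside 34.4% higher and 35.2% lower among all genes tested.

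Position along the chromosomes mattered for reading some of these values. For 9 of the 10 genes, the median log2 fold change of the other genes within 10 Mb lay between -0.063 and 0.064, and Gbx2 was the exception. Stat4 (median of its neighbours 0.47) and Tfcp2l1 (0.61) also lie on chromosome 1, where the 979 genes other than Gbx2 had a median of 0.50. The rise of Ptpn6, on chromosome 6, was close to the median of its neighbours there, 0.56, while those around Braf, elsewhere on that chromosome, had a median of 0.0057. Junb lies on chromosome 8, whose median was -0.20, but its 162 neighbours within 10 Mb had a median of -0.063.

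**Figure D4:**
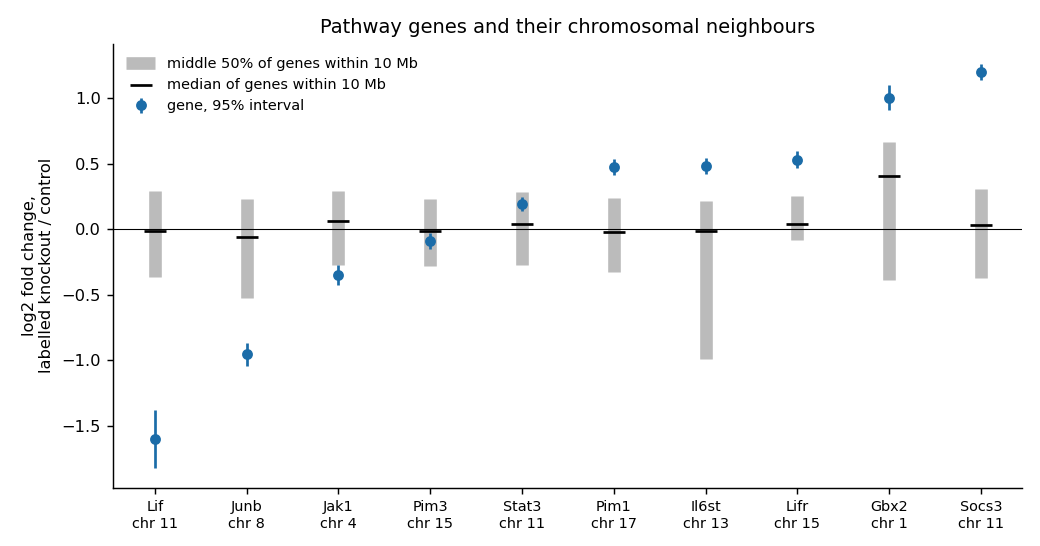
Log2 fold change of each of the 10 genes (points, 95% interval) beside the median (line) and the middle 50% (grey) of the other genes within 10 Mb whose mean count was 10 or more. The neighbours of Gbx2 have a median of 0.40, those of the other 9 genes lie near 0, and the points of Stat3 and Pim3 lie within the grey bars while those of the other genes lie outside them.

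In level, the pathway spanned a wide range. In the control libraries the order by FPKM was Pim3 (51.6 ± 1.98), Socs3 (32.6 ± 0.093), Pim1 (27.3 ± 0.49), Junb (26.8 ± 1.30), Stat3 (24.9 ± 0.27), Jak1 (10.6 ± 0.14), Lifr (9.11 ± 0.36), Gbx2 (8.81 ± 0.068), Il6st (8.19 ± 0.14) and Lif (1.85 ± 0.10; SD, n = 3). Pim1 and Junb overlapped, and each other gene lay above the next in all 3 libraries. In the libraries labelled knockout Socs3 came first (74.8 ± 3.96), ahead of Pim3 (48.5 ± 1.54), Pim1 (37.8 ± 1.41), Stat3 (28.5 ± 1.11), Gbx2 (17.6 ± 0.84), Junb (13.8 ± 0.45), Lifr (13.1 ± 0.64), Il6st (11.5 ± 0.088), Jak1 (8.33 ± 0.33) and Lif (0.609 ± 0.031; SD, n = 3). Here Junb and Lifr overlapped. Socs3 and Pim3 had changed places at the top, Junb stood below Stat3 and Gbx2, Gbx2 stood above Jak1 and Lifr, and Lif was last in both groups. Among all genes tested, Pim3 had a control FPKM above that of 91.0% of genes and Lif above that of 36.3%.

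Part of this order depends on the length used. With the summed length of all exons in place of the longest transcript, Stat3 was at 15.8 FPKM in the control libraries, a move of over 1.5 times. Gbx2 (8.64) and Lifr (8.16) then stood above Jak1 (7.20), and in the libraries labelled knockout Lifr (11.8) stood above Junb (10.9). Pim3 and Socs3 stayed the highest 2 and Lif the lowest with either length.

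**Figure D5:**
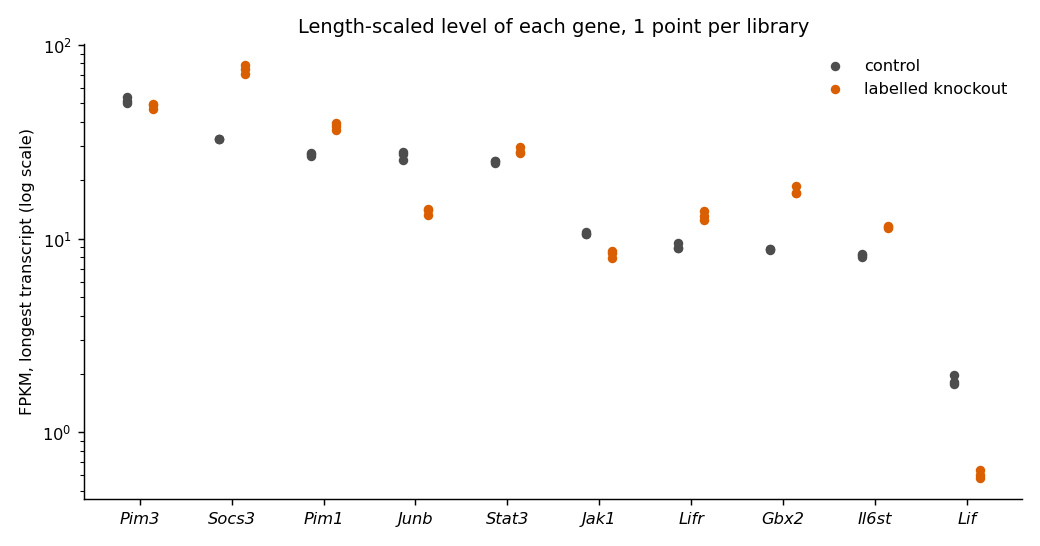
FPKM of each gene in every library on a log axis, in the order of the control means, with each point a library. Socs3 moves from 32.6 to 74.8 and stands above Pim3 in the lines labelled knockout, and Lif is lowest in both groups.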

How the data were processed

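Poly(A) RNA of 6 mESC lines, 3 per group, was sequenced in 1 library each. The authors removed rRNA reads with Bowtie2 (version 2.1.0), mapped the remainder to mm10 with TopHat (version 2.0.10) and deposited raw counts of fragments per GENCODE Release M4 gene from HTSeq (version 0.6.1), counted by strand and without multiply mapped fragments. Genes that resemble a copy elsewhere are therefore under-counted. None of the 10 genes shares exon bases with a gene on its own strand. No column was left unused. Symbols, coordinates and lengths came from GENCODE Release M21 (42425 of 43309 identifiers matched), and promoters from RefSeq on GRCm38.p6.

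The 16823 genes that reached 10 counts in any library were tested in R 4.3.3 with edgeR 4.0.16 (TMM, glmQLFit, glmQLFTest, no covariate), with Benjamini-Hochberg adjustment. The standard error was the size of the log2 fold change divided by the square root of F. In a simulation with real means and depths (16343 genes), 200 genes were changed by 0.5 or 1 (log2) in either direction. Of the changes of 0.5, 92.1% were recovered, and of those of 1, 100%, with 14 false calls. Far fewer genes were changed there than the 69.5% called in the data. The simulation therefore does not test the scaling or the error rate where most genes move. The common dispersion was 0.000402. The mean chi-square per gene between lines of a group was 1.14 to 2.24, where sampling noise alone gives about 1, so no 2 libraries were identical, but this does not show that lines were separate. The study describes the lines of a group as biological replicates and also speaks of clones. If the lines of a group were not independent, the standard errors and p-values would understate the variation between lines. Intervals cover no error of mapping. cpm and FPKM were computed here.

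The 10 genes, the gene lists and the tests were chosen with earlier results of these data known. Named were the 10 genes, Zbtb24 and, per list, up to 3 genes in each direction with FDR at most 0.05, a log2 fold change of 0.5 or more in size and a mean of at least 50 counts. Others are named to account for a list. Some genes of the lists enter the counts but are not reported here by name, in text or plots. The shares of Pim1, Pim2, Jun genes and ligands and the ratio of Lifr to Lif were added after values were seen. Alternatives were DESeq2 1.42.0, edgeR's exact test, other scalings and filters, an FDR of 0.01, a minimum log2 fold change of 0.5, loess offsets for GC content and length (span 0.5), the replicate number as a block, the summed exon length, and leaving out each library.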

Additional observations from a re-analysis of the deposited data

How the results depend on the processing

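Among the 10 genes, 180 of 190 values over 19 alternatives kept their direction and their side of the FDR threshold, 8 lost the call and 2 reversed. Both reversals were Pim3, at 0.13 with offsets for GC content and length and at 0.13 with those offsets and the replicate block. The test against a log2 fold change of 0.5 accounted for 6 of the lost calls and left 4195 genes and 4 pathway genes. The other 2 were Pim3 without control line 3 and without line 1 labelled knockout, with 9 pathway genes called each. Leaving out 1 library gave 11059 to 11304 calls in all and 9 to 10 pathway genes. Gbx2 then ranged from 0.96 to 1.03, so its place above 1 is not fixed. With the GC and length offsets Socs3 had 1.34, Gbx2 1.16 and Junb -0.72, and the cause was not tested. DESeq2 called 10326 genes. Scaling by library totals moved the median of all genes to -0.049.

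The replicate numbers share no stated source. Deviations of same-numbered lines correlated at 0.0062, 0.071 and 0.016 across 11115 genes, and line 3 labelled knockout correlated best with control line 1 (0.054), so the lines were not treated as paired. With the replicate block 11801 genes and 10 pathway genes were called. With the block and the GC and length offsets together, 11750 and 10 were.

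Of 20 mean FPKM levels, 17 moved by more than their SD with the summed exon length. When a library was left out, 0 of 60 did so. That result was fixed beforehand, because dropping a library cannot move the mean of its group by more than the SD. It therefore says nothing about how stable the levels are. The fewest fragments among the 10 genes were those of Lif, so its interval was the widest.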

Other observations

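Of the genes whose mean count was 100 or more, Etnk1, Rcor2 and Nfat5 had the profile most like that of Socs3, with Pearson's r of log2(cpm + 1) over the 6 libraries of 0.9999, 0.9998 and 0.9998. The 6 libraries form 2 groups, and 2775 of the 11105 genes compared had r above 0.95, so likeness over these points says little beyond a rise in the same group. Their log2 fold changes were 0.67, 0.68 and 0.51, below that of Socs3.

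The promoters of the 10 genes differed in base composition. Over 250 bases before the start, the first Pim1 promoter and the first Lifr promoter were 82.4% G or C with 36 and 43 CG dinucleotides, whereas the Lif promoter was 63.6% with 6.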
